A study of Saccharomyces cerevisiae with 12 samples.

Results

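Wild-type (WT) haploid budding yeast of the MATalpha mating type was compared with wild-type yeast of the MATa mating type across all genes. The comparison uses 6 of the 12 libraries of the series, 3 from each mating type, and was fitted on these 6 alone. The other 6 libraries come from strains with a point mutation in the corepressor gene TUP1, and they enter only where the same mating-type difference was read in that background. The study asks what Tup1 does at the promoters it binds; total RNA from log-phase cells was depleted of ribosomal RNA and sequenced as stranded, paired-end libraries. Every library came from cells grown at 30 °C in rich medium with added adenine and 2% dextrose, and harvested at an optical density (660 nm) of 0.6 to 0.8. The MATa group is strain DY150 and the MATalpha group is strain DY3420. Both are of the W303 background, and both carry a mutant allele of LEU2 together with ura3-1, trp1-1, his3-11,15, ade2-1 and can1-100. The mutant groups are strain DY19304 (MATa) and strain DY19306 (MATalpha), which carry tup1(S649F) in addition to the same background alleles. Each group is therefore a single strain, and a difference in mating type and any other difference between DY150 and DY3420 cannot be told apart. Nothing in the labels tells whether the 3 libraries of a strain were grown as separate cultures, and p-values measure only the spread among them.

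Mating type in haploid yeast is set by the allele at the MAT locus on chromosome III, while silent copies of both alleles are kept at HML and HMR. In MATalpha cells, Matalpha1 together with Mcm1 switches on the alpha-specific genes, and Matalpha2 together with Mcm1 brings the Tup1-Cyc8 corepressor to the a-specific genes and shuts them off. In MATa cells, Mcm1 drives the a-specific genes and the alpha-specific genes stay off. The a-specific genes include those for a-factor, its exporter and the receptor for alpha-factor; the alpha-specific genes include those for alpha-factor and the receptor for a-factor.

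The 3 MATa libraries held 8250888, 7722119 and 7102722 counts, and the 3 MATalpha libraries 9300353, 6718579 and 6339280. Replicates lay close together: the median coefficient of variation of a gene was 4.94% among MATa libraries and 5.20% among MATalpha libraries, and the common biological coefficient of variation in edgeR was 0.0305, against 0.0941 among the tup1 libraries. The first principal component held 87.2% of the variance and separated the mating types. It used log2 levels, not scaled by gene, of 4604 genes with a mean count of at least 100. These include a- and alpha-specific genes, which had the largest differences, and their part in that share was not tested. Residual ribosomal RNA took 0.803 to 0.844% of counts in MATa and 0.922 to 0.965% in MATalpha, small nuclear and nucleolar RNA 1.74 to 1.76% and 1.86 to 2.08%, and the 10 most counted genes 16.3 to 16.6% and 14.4 to 15.0%. These shares moved with mating type without overlap between the groups, and their part in the differences below was not tested.

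Of 5539 genes tested, 520 (9.39%) were called higher in MATalpha and 571 (10.3%) lower, 1091 (19.7%) in all, at an adjusted p under 0.05 (edgeR's quasi-likelihood test with Benjamini-Hochberg adjustment, which gives every adjusted p below unless another tool is named). At least 2-fold differences were called for 20 genes (0.361%), 10 in each direction. The values of the 3 MATalpha libraries did not overlap those of the 3 MATa libraries for 1919 genes (34.6%), and for 1043 of the 1091 called genes (95.6%). Higher calls made up 47.7% of all calls with TMM scaling. That share depends on scaling: with upper-quartile factors it was 57.8% (628 higher, 458 lower), and with library totals alone 81.0% (1190 higher, 279 lower). The 12-library fit, in which the wider spread of the mutant libraries enters, called 30 genes higher and 21 lower. Since the RNA comes from whole cultures, fewer cells of a type and less RNA per cell cannot be told apart at any gene below.

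The mating-type genes themselves differed most, and all 12 a- and alpha-specific genes went the way the labels of the libraries say. Among the a-specific genes, the alpha-factor receptor STE2 had 5093, 4754 and 4559 raw counts in the MATa libraries and 60, 38 and 35 in the MATalpha libraries, a log2 difference of -6.79 (SE 0.0672, adjusted p = 1.06e-42). STE6, the a-factor exporter, had 4294, 4289 and 3889 counts against 151, 117 and 114 (log2 -5.06). BAR1, the protease that degrades alpha-factor, had 2583, 2405 and 2205 counts against 33, 21 and 20 (log2 -6.63). All 3 genes were far from overlap, yet none of them reached 0 counts in MATalpha. The a-factor gene MFA2 had 2701, 2406 and 2298 counts against 7, 3 and 5 (log2 -8.94), and AGA2, a subunit of the a-agglutinin, had 260, 205 and 253 against 2, 0 and 3 (log2 -7.09). MFA1, the other a-factor gene, had 310, 280 and 269 counts against 1, 2 and 0, which puts MATa 292-fold higher (95% exact interval 99.7 to 1421, counting error only). ASG7, an inhibitor of pheromone signalling, had the fewest counts of the list, 17, 29 and 40 against 1, 1 and 0, a ratio of 43.9 (11.8 to 368).

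Among the alpha-specific genes the order was reversed. STE3, the a-factor receptor, had 19, 11 and 9 counts in MATa and 4635, 3428 and 3367 in MATalpha (log2 8.16, SE 0.0906, adjusted p = 4.68e-41). MF(ALPHA)1, the main alpha-factor gene, had 0, 2 and 0 counts against 9480, 6628 and 6331, a ratio of 10990 (3041 to 90720), and MF(ALPHA)2 had 5, 3 and 2 against 6594, 5134 and 5073 (log2 10.65). For 2 genes of this list MATa cells kept a clear level. SAG1, the alpha-agglutinin, had 374, 319 and 308 counts in MATa against 6344, 4575 and 4957 in MATalpha (log2 3.97, SE 0.0646). AFB1, which encodes the a-factor barrier protein, had 157, 179 and 154 against 4370, 3189 and 3122 (log2 4.42). At the loci, MATALPHA1 had 0 counts in each MATa library and 8, 4 and 5 in MATalpha, at least 5.55-fold higher when MATa is set to a floor of 3 counts in all. HMRA1, where the reference places the a1 sequence, had 91, 72 and 62 counts in MATa and 0 in each MATalpha library, at least 76.6-fold lower in MATalpha. MATALPHA2 had 1 count in MATalpha replicate 1 and 0 in the other 5 libraries. MATALPHA1 and MATALPHA2 each have 2 exact copies on chromosome III of the R64 reference, so counts there cannot be placed between the MAT locus and HML.

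The promoters of the a-specific genes are where Matalpha2 and Mcm1 are known to bind, and they are shown because the largest differences lie at these genes. The core CATGTAA of the Matalpha2 site was searched on both strands from 250 bases before to 50 after each gene's start in the R64 reference of RefSeq. It was found at 6 of the 7 a-specific genes, at 1 of the 5 alpha-specific genes (SAG1) and at 205 of 5509 tested genes with a window (3.72%). The windows read 5′ to 3′ on the strand of the gene, with the core in capitals (TTACATG where it lies on the other strand): STE2 at chrVI:82337-82371 (plus strand), STE6 at chrXI:46487-46521 (minus), BAR1 at chrIX:322092-322121 (plus), MFA1 at chrIV:1384952-1384986 (plus), MFA2 at chrXIV:352173-352207 (plus), ASG7 at chrX:101891-101925 (minus) and SAG1 at chrX:445031-445065 (minus).
STE2: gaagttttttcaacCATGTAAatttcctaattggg
STE6: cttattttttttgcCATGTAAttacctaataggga
BAR1: aaaaggaaaTTACATGgcgagtgtcacata
MFA1: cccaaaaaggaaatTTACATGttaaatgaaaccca
MFA2: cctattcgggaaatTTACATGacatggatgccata
ASG7: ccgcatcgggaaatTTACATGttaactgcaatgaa
SAG1: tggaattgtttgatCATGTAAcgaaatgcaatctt
The core begins 132 (ASG7) to 241 (BAR1) bases before the start of the gene in these windows. Outside the mating-type lists it was found in 22 of 512 windows of genes called higher (4.30%) and 13 of 563 of genes called lower (2.31%). The Ste12 element TGAAACA, known from pheromone-induced promoters, was found at 5 of the 7 a-specific genes against 7.26% of all windows. These matches are descriptions of the letters in the windows.

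Genes next to the a- and alpha-specific genes were looked at because several of them were among the larger differences, so these were chosen after their values were seen. Of the 24 nearest tested neighbours, 2 were called higher and 8 lower, beside 9.39% and 10.3% of all genes tested; among the 14 neighbours of a-specific genes 1 was higher and 5 lower, with a median log2 difference of -0.10. GYP8, a GTPase-activating protein of vesicle transport that lies 667 bases upstream of STE2 on the opposite strand (chromosome VI, 80419 to 81912), was counted at 21.6, 25 and 21 CPM (counts scaled to library size with TMM factors) in MATa and 12.8, 12.8 and 10.7 CPM in MATalpha (log2 -0.89, SE 0.114, adjusted p = 2.25e-07). TOH1, a cell wall protein gene 255 bases downstream of ASG7 (chromosome X, 99704 to 100894), was counted at 255, 251 and 253 CPM against 145, 160 and 164 (log2 -0.70, SE 0.0441, adjusted p = 2.96e-15). Both genes were lower in all 3 MATalpha libraries than in any MATa library, and 95.6% of all called genes had no overlap between the groups.

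Around MFA2 on chromosome XIV, neighbours went in opposite directions. YNL146W, 396 bases upstream of MFA2, was counted at 1.75, 2.76 and 1.89 CPM in MATa and 6.79, 6.31 and 5.90 in MATalpha, a mean of 2.13 ± 0.548 against 6.33 ± 0.444 CPM (SD, n = 3; adjusted p = 2.97e-06). YNL146C-A, further upstream and on the minus strand (351386 to 351580), was counted at 2.75, 2.23 and 4.21 CPM against 0.309, 0.147 and 0.310 (log2 -3.45, adjusted p = 8.78e-07). Downstream of MFA1, CMI8 was at 4, 2.63 and 2.47 CPM against 1.34, 0.880 and 1.86 (log2 -1.17), a call that is lost without MATa replicate 1 (adjusted p = 0.0854). These low levels rest on few reads in each library. SNR10, a small nucleolar RNA of the H/ACA class, lies 832 bases upstream of MF(ALPHA)2 (chromosome VII, 345986 to 346230) and was counted at 136, 154 and 128 CPM in MATa against 236, 234 and 264 in MATalpha (log2 0.81, SE 0.0585, adjusted p = 2.94e-09). Near the MAT locus itself differences were small: PER1 was lower (log2 -0.21, adjusted p = 0.00897), a call lost without MATa replicate 1 (adjusted p = 0.0807), and PHO87 was lower (log2 -0.18, adjusted p = 0.0454), a call lost without MATa replicate 2 (adjusted p = 0.463) or without any of the 3 MATalpha replicates (adjusted p = 0.0645 to 0.153).

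Beyond the a-specific, alpha-specific and mating-type locus lists, 1078 genes were called, 515 higher and 563 lower, and most of these differences were small. Their median absolute log2 difference was 0.22, a 1.17-fold difference, with quartiles of 0.17 and 0.30. Genes called higher were 18.3% higher at the median, and genes called lower 13.4% lower. Differences under 1.2-fold made up 710 of the 1078 (65.9%), while 29 reached 1.5-fold, 18 higher and 11 lower. The smallest difference called was 0.093 on the log2 scale, beside a median SE of 0.0707 over all genes. In simulated counts made with the levels and spread of these 6 libraries, 200 genes were changed, fewer than the 1091 called here. The test found 50% of genes changed by 0.25 and 83.7% of those changed by 0.5, and 7.82% of its calls fell on unchanged genes. These shares depend on how many genes change, so they do not carry over to the calls above. Leaving out each of the 6 libraries in turn, 521 of the 1091 calls (47.8%) were kept in every fit.

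**Figure D1:**
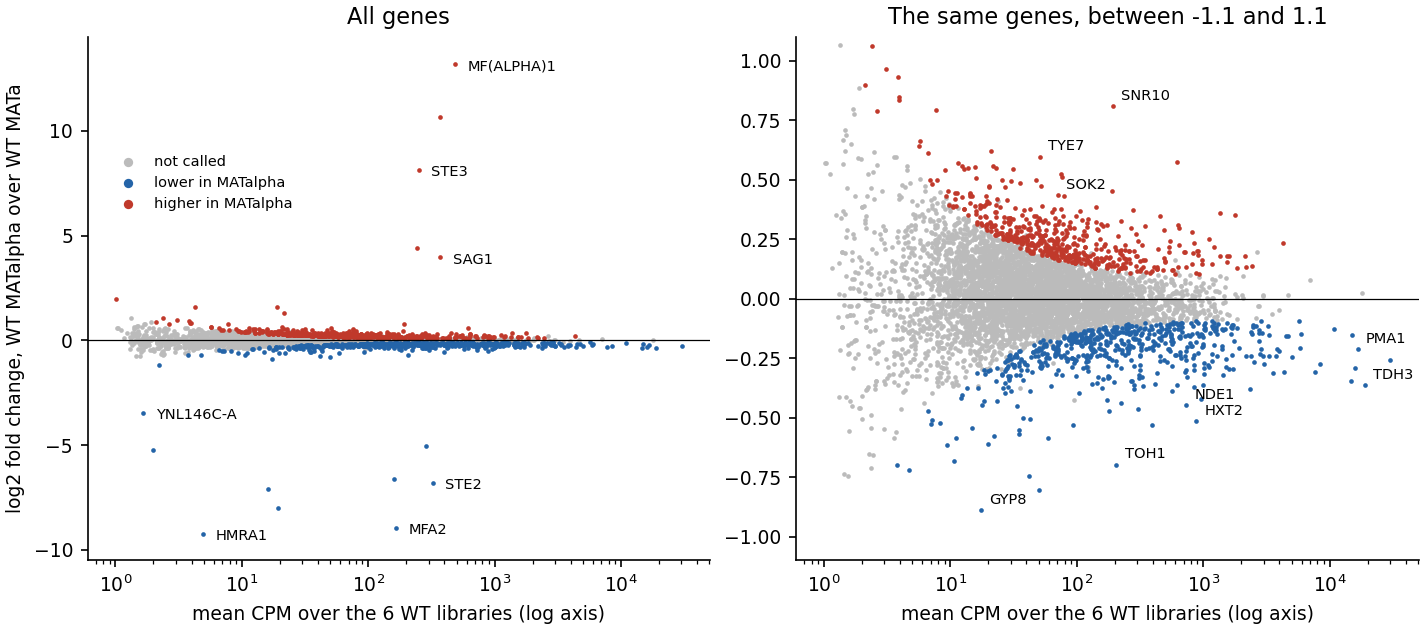
Each point is a tested gene, with its mean CPM over the 6 WT libraries on the log x axis and its log2 difference, MATalpha over MATa, on the y axis; red and blue points were called higher and lower in MATalpha. The left panel shows the mating-type genes far from the rest, and the right panel shows the 1.17-fold median difference of the other calls and the mostly lower genes at high levels.

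The direction of the small differences varied with the level of the gene. Tested genes were split by mean CPM into 5 groups of equal size. In the lowest group 3.52% were called higher and 1.53% lower, and in the middle group 11.4% and 5.33%. In the highest group 11.4% were called higher and 29.2% lower, with a median log2 difference of -0.04. Of the 10 most counted genes 9 were lower and 0 higher, and of the top 100, 61 were lower and 11 higher. This tilt depends on scaling: with library totals alone the highest group had 315 genes higher and 182 lower, against 126 and 323 with TMM factors. Shorter genes lay slightly higher (median 0.06 in the shortest of 5 groups by length) than longer genes (median -0.01 in the longest). The medians of the nuclear chromosomes lay between -0.02 and 0.02.

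**Figure D2:**
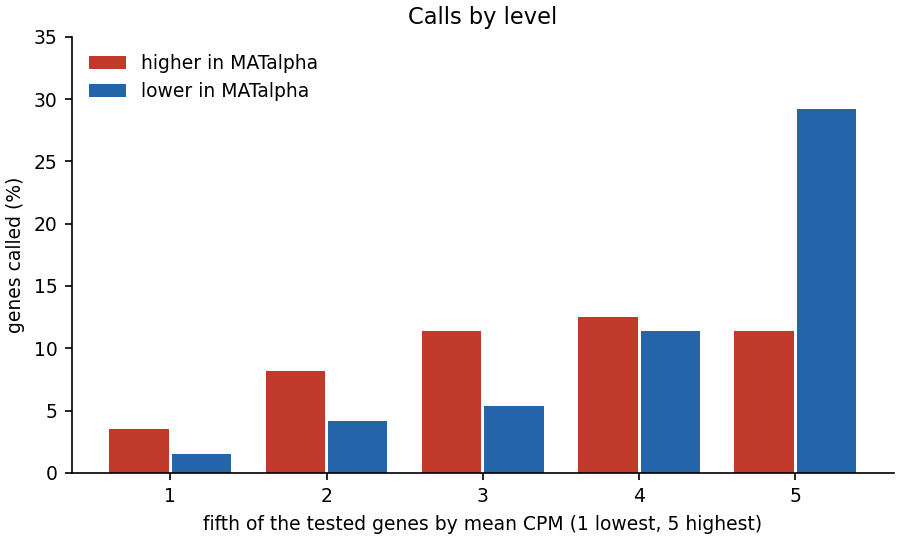
Bars give the percent of tested genes called higher (red) and lower (blue) in MATalpha in each of 5 equal groups of genes by mean CPM over the 6 WT libraries. The share called lower rises from 1.53% in the lowest group to 29.2% in the highest, while the share called higher lies between 3.52% and 12.5%.

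Outside the lists, the largest higher difference among genes of at least 10 CPM lay at adjacent genes of chromosome IV. BSC1 was counted at 8.25, 9.59 and 11.2 CPM in MATa and 31.4, 20.5 and 33.4 in MATalpha (log2 1.57, SE 0.167, adjusted p = 2.48e-06), and PRM7, a pheromone-regulated membrane protein gene, at 10.9, 13.1 and 13.5 against 37.4, 21.4 and 33.5 (log2 1.33, SE 0.205, adjusted p = 0.00142). At both, MATalpha replicate 2 was the lowest of its group. Both were picked among genes without overlap between the groups. TYE7, an activator of glycolytic genes, was counted at 38.5, 46.8 and 36.1 CPM in MATa and 61.1, 56.3 and 66.8 in MATalpha (log2 0.60, adjusted p = 9.61e-07). MAK31, a subunit of an N-terminal acetyltransferase, was higher by 0.57 on the log2 scale, and the uncharacterised YGR035C by 0.56. Past 2-fold at lower levels, and chosen after their values were seen, were YER137C at 1.62, 1.45 and 1.6 CPM against 3.39, 3.08 and 3.26, and YLL066C, a member of the subtelomeric Y′ family whose copies share reads, at 0.25, 0.657 and 0.290 against 1.54, 1.61 and 1.71.

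Besides GYP8, TOH1 and the mitochondrial gene ATP6 (log2 -0.80, described with the mitochondrial genes), genes with larger lower differences included these. PUT4, the proline permease, was counted at 68.9, 68.6 and 74.4 CPM in MATa and 42.2, 47.0 and 53.7 in MATalpha (log2 -0.58, SE 0.0705, adjusted p = 7.69e-08). FRE7, of the ferric reductase family, was at 11.5, 15.8 and 12.2 CPM against 8.02, 8.66 and 7.92 (log2 -0.68). The small nucleolar RNA SNR5 was at 51.3, 52.4 and 52.4 CPM against 29.4, 30.7 and 33.7 (log2 -0.74, adjusted p = 8.28e-10). SNA2 (log2 -0.61) and SPG3 (log2 -0.58) were lower too. These 5 genes were picked among those without overlap between the groups, so their lack of overlap was set by that choice. Small nucleolar RNAs did not share a direction: of 74 tested, 10 were higher, among them SNR10, SNR83 (log2 0.57) and SNR39B (log2 0.62), and 8 were lower, with a median of 0.03. These shares, 13.5% and 10.8%, were near the 9.39% and 10.3% of all genes. Without MATalpha replicate 3 the higher count was 6, and without MATa replicate 1 the lower count was 5; library totals alone gave 18 and 5, and DESeq2 5 and 6. RNAs of this size are caught unevenly in total RNA libraries, and the share of small nuclear and nucleolar RNA was itself higher in MATalpha, as given above.

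**Figure D3:**
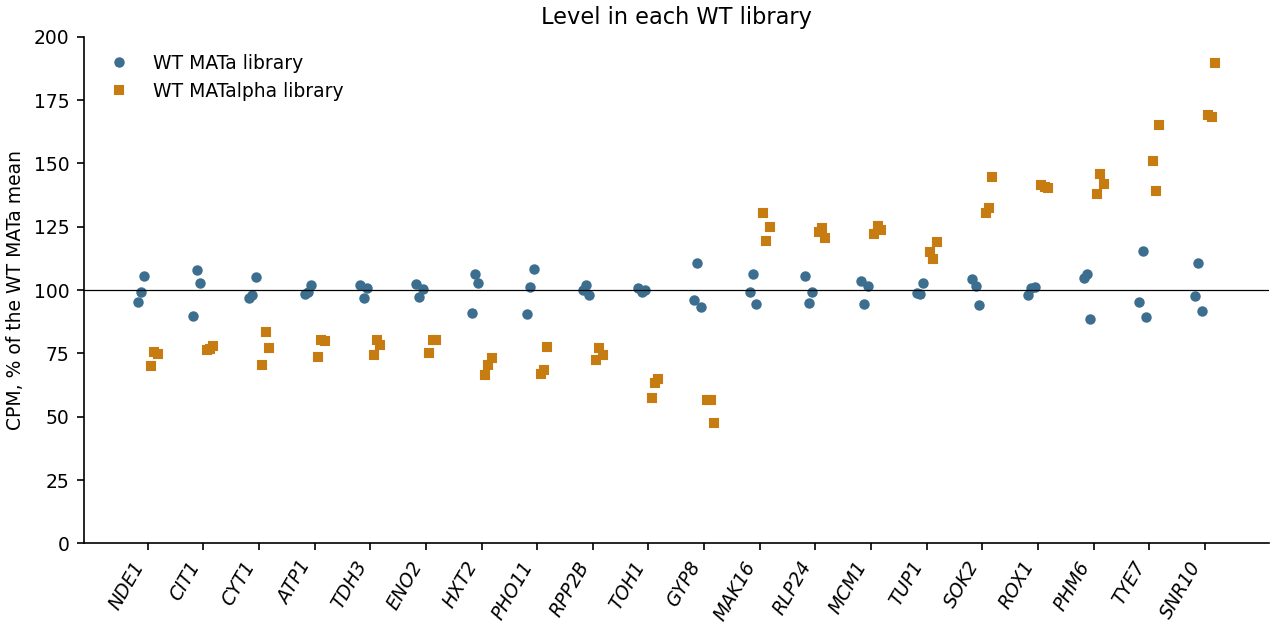
Each point is 1 WT library, and the y axis gives the CPM of the gene as a percent of its MATa mean; circles are MATa and squares MATalpha libraries. In these 20 genes the MATalpha libraries lie on 1 side of all 3 MATa libraries, from near 50% for GYP8 to above 150% for SNR10. Of all called genes 95.6% had no overlap between the groups.

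Genes of respiration were lower in MATalpha as a group, by small amounts. The respiratory list holds the TCA cycle, the respiratory chain, ATP synthase and the dehydrogenases that feed electrons into the chain; these genes are known to be held low while glucose is plentiful and to be driven by the Hap2/3/4/5 complex. Of its 56 genes 27 (48.2%) were lower and 0 higher, with a median log2 difference of -0.16. Over all genes tested 10.3% were lower, with a median of 0.01. In the highest of the 5 groups by mean CPM, 29.2% were lower, with a median of -0.04. The cytochrome c oxidase and ATP synthase genes, each at 33.3% lower, were near that last share. The summed level of the list was 10944 to 11547 CPM in the MATa libraries and 9223 to 9894 CPM in the MATalpha libraries, without overlap. With library totals alone 18 were lower and 7 higher, with 1 library left out 20 to 27 were lower, DESeq2 called 22 lower, and the 12-library fit 3.

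Within the list the TCA cycle moved most: 11 of 15 genes were lower and 0 higher, with a median of -0.21. CIT1, the mitochondrial citrate synthase, was counted at 161, 193 and 184 CPM in MATa and 137, 138 and 140 in MATalpha (log2 -0.38, SE 0.0518, adjusted p = 1.91e-06). ACO1, aconitase, was at 1111, 1117 and 1120 CPM against 890, 948 and 942 (log2 -0.27, SE 0.0342, adjusted p = 1.94e-07). Percent differences of a gene are those of MATalpha relative to MATa. SDH1, the flavoprotein subunit of succinate dehydrogenase, differed by -16.4% and LSC1, a subunit of succinyl-CoA ligase, by -14%. In complex III with cytochrome c, 6 of 11 genes were lower, with a median of -0.19. CYT1, cytochrome c1, was at 310, 315 and 337 CPM against 225, 267 and 247 (log2 -0.38, SE 0.0483, adjusted p = 1.22e-06), RIP1, the Rieske iron-sulfur protein, differed by -14.8% and QCR9, a small subunit, by -17.2%. At each of these 7 genes all MATalpha libraries lay below all MATa libraries. Lack of overlap was common to called genes, at 95.6% of all of them.

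Cytochrome c oxidase and ATP synthase differed less evenly. Of 9 nuclear cytochrome c oxidase genes 3 were lower, among them COX4 (139, 152 and 155 CPM against 107, 126 and 116; log2 -0.36, adjusted p = 6.30e-06) and COX6 (-15.6%, a call lost with library totals alone at an adjusted p of 0.0558). The median of this group was -0.02 with TMM and 0.05 with library totals alone, and its summed level overlapped between mating types, so the group as a whole has no fixed direction. Of 15 ATP synthase genes 5 were lower, with a median of -0.14. The count fell to 3 without MATa replicate 1 or 2, and to 2 without MATa replicate 3 or MATalpha replicate 1, in DESeq2 and with library totals alone. ATP1, the alpha subunit, was counted at 1106, 1113 and 1146 CPM in MATa and 823, 899 and 896 in MATalpha (log2 -0.36, SE 0.0360, adjusted p = 1.12e-09), and ATP2, the beta subunit, differed by -16.2%. Among the dehydrogenases, NDE1, the external NADH dehydrogenase, had the largest decrease of the list: 801, 835 and 886 CPM against 588, 634 and 628 (log2 -0.45, SE 0.0382, adjusted p = 2.43e-11). GUT2, the mitochondrial glycerol-3-phosphate dehydrogenase, differed by -18.2%. None of the 5 genes listed for the Hap activators themselves was called, and 0 had an unadjusted p under 0.05; HAP1, the heme-responsive activator, was at -0.07 on the log2 scale (adjusted p = 0.264).

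The CCAAT element CCAATNA that the Hap complex is known to bind was searched on both strands of the same windows, to see whether it goes with the genes that were lower. It was found at 34 of the 56 respiratory genes (60.7%) and at 16.4% of all windows. Within the list, 13 of 27 genes called lower held it (48.1%), and 21 of 29 not called (72.4%). Outside the respiratory and mating-type lists it was found at 97 of 536 genes called lower (18.1%). CIT1, ACO1, CYT1, COX4 and ATP1 have no match in their windows, while the examples that do, RIP1 at chrV:107010-107028 (plus strand), QCR9 at chrVII:859668-859692 (minus), COX6 at chrVIII:209479-209503 (plus) and NDE1 at chrXIII:556562-556586 (minus), are printed 5′ to 3′ on the strand of the gene, with the element in capitals (TAATTGG on the other strand at COX6).
RIP1: ggaCCAATCAgcgttttgc
QCR9: atacacgacCCAATCAaacgcgggg
COX6: aaagggaccTAATTGGtccggtcaa
NDE1: tctggtaaaCCAATTAaagagagaa
The element was thus more frequent in the list than over all windows, and less frequent among its genes called lower than among those not called, a difference that was not tested.

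Glycolysis and fermentation genes, which carry glucose to ethanol and include the most abundant messages of the cell, were also lower in MATalpha. Of 18 genes 14 (77.8%) were lower and 0 higher, with a median of -0.15, beside 10.3% lower of all genes. In the highest of the 5 groups by mean CPM, 29.2% were lower. The summed level was 130178 to 136011 CPM in MATa and 110471 to 117795 CPM in MATalpha, without overlap. With library totals alone 10 were lower and 3 higher. TDH3, the main glyceraldehyde-3-phosphate dehydrogenase, was counted at 21690, 20600 and 21450 CPM in MATa and 15840, 17060 and 16670 in MATalpha (log2 -0.36, SE 0.0340, adjusted p = 3.09e-10). ENO2, enolase, was at 16920, 16040 and 16570 CPM against 12400, 13280 and 13260 (log2 -0.35). ADH1, the fermentative alcohol dehydrogenase, differed by -19.3%, PGK1, phosphoglycerate kinase, by -19.4%, and PDC1, pyruvate decarboxylase and the most counted gene, by -16.4%. TDH3, ENO2, ADH1 and PDC1 have close paralogs, and reads may be split between copies. TYE7, which is known to activate this group, was higher in MATalpha, as given above. Other highly counted genes were lower as well: PMA1, the plasma membrane proton pump, by 13.7%, and YEF3, a translation elongation factor, by 10.2%. SCR1, the RNA of the signal recognition particle, was lower by 0.29 on the log2 scale (adjusted p = 0.0072), a call lost without MATa replicate 2 (adjusted p = 0.0592).

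Glucose-repressed genes outside respiration showed a few decreases: of 25 tested 6 were lower and 1 higher, with a median of -0.10 (0.01 in DESeq2). The share lower, 24.0%, lay beside 10.3% of all genes and 29.2% in the highest of the 5 groups by mean CPM. The higher gene, the hexose transporter HXT5, had the largest difference of the list (log2 0.97), and DESeq2 called 0 genes of the list higher. HXT2, a glucose transporter used at lower glucose, was counted at 947, 1106 and 1070 CPM in MATa and 691, 732 and 763 in MATalpha (log2 -0.52, SE 0.0487, adjusted p = 2.11e-07). HXT4, of the same family, was at 313, 320 and 332 CPM against 230, 270 and 252 (log2 -0.36), and GLK1, glucokinase, differed by -20.4%. Each of the 3 genes was lower in every MATalpha library than in any MATa library, and 95.6% of all called genes had no overlap between the groups.

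Ribosome biogenesis genes went the other way. This regulon encodes the factors that make and process ribosomal RNA and is known to rise and fall with growth rate and nutrients. Of 95 genes 34 (35.8%) were higher and 2 (2.11%) lower, with a median of 0.11, beside 9.39% and 10.3% of all genes. The share higher in the 5 groups by mean CPM lay between 3.52% and 12.5%. The summed level of the list was 18200 to 18489 CPM in MATa and 18511 to 19489 CPM in MATalpha. The number higher rests partly on single libraries: it was 15 without MATalpha replicate 1 and 22 without MATa replicate 1. It was 65 with library totals alone, 13 in DESeq2 and 1 in the 12-library fit. MAK16, a constituent of large-subunit precursors, was counted at 77.5, 83.1 and 74.0 CPM in MATa and 102, 93.5 and 97.5 in MATalpha (log2 0.32, SE 0.0565, adjusted p = 4.90e-05). RLP24, which resembles a ribosomal protein and is exchanged for it during maturation, was at 83.4, 74.9 and 78.3 CPM against 97.1, 98.3 and 95.2 (log2 0.30, adjusted p = 0.000123). EBP2 (21.6% higher) and the GTPase NOG2 (16.2% higher) also act in large-subunit assembly. TIF6, which keeps the subunits apart until the large one is mature, went against the list at 341, 327 and 350 CPM against 277, 293 and 295 (log2 -0.24, adjusted p = 2.50e-05). Of 8 RNA polymerase I genes 3 were higher, among them RPA34 (log2 0.26, adjusted p = 0.00198); the count was 1 without MATa replicate 2 and in DESeq2, and 6 with library totals alone, and the summed level overlapped between the groups.

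The PAC element GATGAG is the known shared element of these promoters, and the windows were read to see how it goes with the genes that were higher. It was found at 88 of the 95 ribosome biogenesis genes (92.6%) and at 20% of all windows. In this list together with RNA polymerase I it was found at 36 of 37 genes called higher (97.3%) and 59 of 66 not called higher (89.4%). Among the 1008 genes with the element outside these lists, 11.3% were called higher and 7.94% lower, beside 9.39% and 10.3% of all genes. The windows are MAK16 at chrI:101255-101278 (minus strand), EBP2 at chrXI:125665-125693 (plus), RLP24 at chrXII:166322-166355 (plus), NOG2 at chrXIV:723279-723302 (minus) and RPA34 at chrX:140318-140341 (plus), with the element in capitals (CTCATC on the other strand) and overlapping copies joined at EBP2 and RLP24.
MAK16: aaattttccGATGAGcttttgaaa
EBP2: ctaaatacaGATGAGATGAGctttataga
RLP24: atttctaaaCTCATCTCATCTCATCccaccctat
NOG2: tgcccgatgCTCATCgcaaaaatt
RPA34: aattttatcGATGAGcattgaata

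Ribosomal protein genes split within the list. Of 138 cytosolic ribosomal protein genes 30 were higher (21.7%) and 41 lower (29.7%), with a median of -0.01. Over all genes the shares were 9.39% and 10.3%. In the highest of the 5 groups by mean CPM they were 11.4% and 29.2%. The share lower was thus near that of highly counted genes. With library totals alone the large-subunit genes were 37 higher and 17 lower (17 and 26 with TMM), so the balance of directions depends on scaling. RPP2B, an acidic protein of the ribosomal stalk, was counted at 1099, 1122 and 1076 CPM in MATa and 797, 847 and 815 in MATalpha (log2 -0.42, SE 0.0345, adjusted p = 6.93e-12). RPL30 differed by -23.7%, and ASC1, a small-subunit protein that also acts in signalling, was at 2732, 2528 and 2748 CPM against 1976, 2084 and 2101 (log2 -0.38). RPS1B went the other way, at 1040, 993 and 1036 CPM against 1253, 1203 and 1197 (log2 0.25, adjusted p = 6.32e-07). Many of these genes come in near-identical pairs, so that values of single copies are uncertain. Of 70 mitochondrial ribosomal protein genes only 1 was higher and 2 lower, and with library totals alone 10 and 1.

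**Figure D4:**
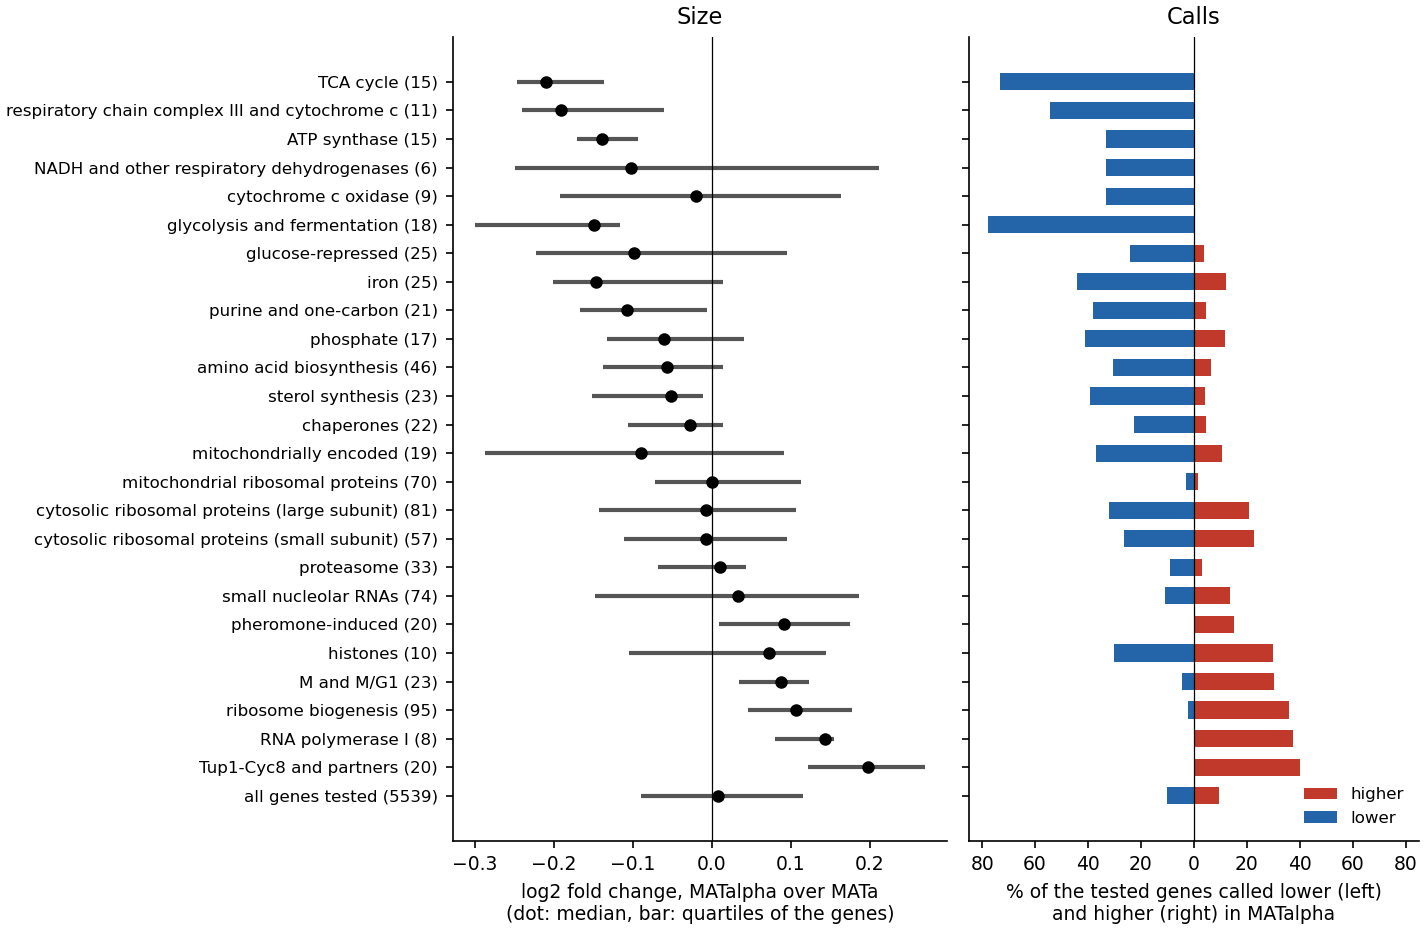
The left panel gives the median (dot) and quartiles (bar) of the log2 difference, MATalpha over MATa, of the genes of each list, with the number tested in brackets; the right panel gives the percent of them called lower (blue, to the left) and higher (red, to the right). The TCA cycle has the lowest median, -0.21, and Tup1-Cyc8 and its partners the highest, 0.20, and cytosolic ribosomal proteins are called in both directions around a median of -0.01.

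Genes for Tup1-Cyc8 and the DNA-binding proteins that recruit it were higher as a group in MATalpha. Of 20 genes 8 were higher and 0 lower, with a median of 0.20, and the summed level was 1337 to 1381 CPM in MATa against 1513 to 1562 CPM in MATalpha. With 1 library left out 6 to 9 were higher, with library totals alone 15, in DESeq2 3, and in the 12-library fit 0. TUP1 itself was counted at 400, 399 and 416 CPM in MATa and 466, 455 and 481 in MATalpha (log2 0.21, SE 0.0366, adjusted p = 5.53e-05). CYC8 was at 165, 171 and 158 CPM against 185, 175 and 180 (log2 0.13, adjusted p = 0.0332); its call is lost in 4 of the 6 fits that leave out 1 library, without MATa replicate 1 or 3 or MATalpha replicate 1 or 3 (adjusted p = 0.0644 to 0.143). ROX1, the repressor of hypoxic genes, was at 24.4, 25.1 and 25.2 CPM against 35.3, 35.1 and 34.9 (log2 0.50, adjusted p = 2.08e-05). SOK2, a repressor of filamentous growth, was 35.1% higher, and MIG2, a glucose repressor, 19.9% higher (a call lost in DESeq2 at an adjusted p of 0.052). MCM1, the partner of both Matalpha proteins, was at 80.7, 73.6 and 79.1 CPM against 94.8, 97.6 and 96.3 (log2 0.31, SE 0.0549, adjusted p = 7.16e-05). HO, the mating-type switching endonuclease gene, was at 69.7, 63.0 and 64.7 CPM against 74.9, 65.7 and 70.8, with overlapping groups and no call (adjusted p = 0.256).

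Nutrient genes differed mostly downward, in counts that depend on scaling. The share lower was 44.0% of iron genes and 41.2% of phosphate genes, beside 10.3% of all genes. In the highest of the 5 groups by mean CPM it was 29.2%. Of 25 iron genes 11 were lower and 3 higher, with a median of -0.15; 7 were lower without MATalpha replicate 1, and 4 with library totals alone. The higher count was 1 without MATa replicate 2 or without MATalpha replicate 1 or 2, and 0 without MATa replicate 3 or in DESeq2. SIT1, a siderophore transporter, was counted at 205, 233 and 220 CPM in MATa and 166, 175 and 176 in MATalpha (log2 -0.35, adjusted p = 2.76e-07), ARN1, of the same family, differed by -16.7% and FET5, a multicopper oxidase, by -15.1%. Of 17 phosphate genes 7 were lower and 2 higher; the lower count was 4 without MATa replicate 2 or 3 or MATalpha replicate 2 or 3, and 2 with library totals alone. PHM6 was higher, at 22.1, 22.5 and 18.7 CPM against 29.1, 30.8 and 30.0 (log2 0.50, adjusted p = 0.000125), as was the acid phosphatase PHO3 (14.8%). The acid phosphatases PHO11 (-29.4%) and PHO12 (-16.5%) are near-identical in sequence and their separate values are uncertain.

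Amino acid biosynthesis genes gave 14 lower and 3 higher of 46, with a median of -0.06 that became 0.02, with 8 lower and 12 higher, under library totals alone. Their share lower, 30.4%, was near the 29.2% of the highest of the 5 groups by mean CPM. The share was 21.7% of methionine and sulfur, 38.1% of purine and one-carbon and 39.1% of sterol genes, beside 10.3% of all genes. HOM6, of threonine and methionine synthesis, was counted at 533, 534 and 522 CPM in MATa and 424, 454 and 452 in MATalpha (log2 -0.26, adjusted p = 1.32e-06), and LEU4, of leucine synthesis, differed by -13.1%; BAT1, the mitochondrial branched-chain aminotransferase, was 14.9% higher. LEU2, HIS3, TRP1, URA3, ADE2 and CAN1, the genes mutated in both strains, gave 0 calls, with 3 of 6 at an unadjusted p under 0.05 and 0 calls in DESeq2. With upper-quartile scaling 2 of them were higher, URA3 and CAN1, with library totals alone 3, and with 1 library left out 0 to 2. Of 23 methionine and sulfur genes 5 were higher and 5 lower. The permeases MUP1 (-17.8%) and MMP1 (-19.0%) were lower, while the sulfate permease SUL1 was higher (log2 0.84), the largest difference of the list. The higher count was 3 without MATa replicate 2, and the lower count was 2 without MATa replicate 1 and 3 without MATalpha replicate 3. Library totals alone gave 11 higher and 2 lower, and DESeq2 1 and 3, so the balance depends on the processing. Of 21 purine and one-carbon genes 8 were lower and 1 higher, with a median of -0.11; IMD4, an IMP dehydrogenase with near-identical copies, differed by -15.1%. Of 23 sterol genes 9 were lower and 1 higher (5 and 4 with library totals alone): ERG13, HMG-CoA synthase, was at 1144, 1061 and 1174 CPM against 898, 914 and 899 (log2 -0.32, adjusted p = 2.09e-08), while IDI1, isopentenyl diphosphate isomerase, was 22.6% higher.

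Genes that both mating types share for mating differed little. The shares higher were 22.2% of pheromone signalling, 15.0% of pheromone-induced and 16.7% of haploid-specific genes. Over all genes tested, 9.39% were higher and 10.3% lower. Of 18 pheromone signalling genes 4 were higher and 0 lower, but the count was 1 or 2 without MATa replicate 1, 2 or 3 or MATalpha replicate 2 or 3, and DESeq2 called 0. Leaving out 1 library ended the call of DIG1 in 5 of 6 fits, of STE12 and STE5 in 4 each, and of STE20 in 1. Of 20 pheromone-induced genes tested 3 were higher and 0 lower, and the count was 1 without MATalpha replicate 1 and 6 with library totals alone; AGA1, the anchor subunit of the a-agglutinin, was at 18.0, 14.6 and 17.6 CPM in MATa and 21.1, 21.6 and 27.5 in MATalpha (log2 0.47, SE 0.113, adjusted p = 0.00265). This sets AGA1 apart from AGA2, the other subunit, which was near 0 in MATalpha. Of 12 haploid-specific genes 2 were higher and 0 lower; with 1 library left out 0 to 1 were higher, with library totals alone 5, and in DESeq2 0.

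In the cell cycle lists, 7 of 23 genes of mitosis and early G1 were higher and 1 lower, with a median of 0.09. These shares were 30.4% and 4.35%, beside 9.39% and 10.3% of all genes. Among G1 cyclin and G1/S genes 25.0% were higher and 15.0% lower, and among histone genes 30.0% went each way. The higher count was 4 without MATa replicate 1 or MATalpha replicate 2 and in DESeq2, and 13 with library totals alone. PRY3, a cell wall protein gene, was at 140, 139 and 132 CPM in MATa and 155, 180 and 181 in MATalpha (log2 0.31, adjusted p = 3.39e-05), and EGT2, of cell separation, was 11.8% higher. Of 20 G1 cyclin and G1/S genes 5 were higher and 3 lower; the higher count was 3 without MATa replicate 3 and 2 in DESeq2. CLN3, the G1 cyclin upstream of the others, was at 131, 146 and 142 CPM against 159, 163 and 176 (log2 0.25, adjusted p = 0.00022). The ribonucleotide reductase subunits went opposite ways: RNR1 differed by -13%, and RNR4 was 27.2% higher at 423, 368 and 409 CPM against 526, 509 and 489. Of 10 histone genes 3 were higher and 3 lower (1 lower without MATa replicate 3, and 5 higher and 1 lower with library totals alone), among them HHF1 (14.7% higher) and HTA1 (-15.1%). SIR4, a silencing protein gene, was 22% higher (adjusted p = 0.00196) and was the 1 call among 8 silencing genes.

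Of 19 mitochondrially encoded genes tested 7 were lower (36.8%) and 2 higher (10.5%), with a median of -0.09, beside 10.3% and 9.39% of all genes. ATP6, a membrane subunit of ATP synthase, was counted at 58.3, 59.0 and 73.0 CPM in MATa and 32.7, 42.2 and 34.5 in MATalpha (log2 -0.80, SE 0.0944, adjusted p = 2.60e-06). COB, cytochrome b, was at 200, 208 and 225 CPM against 146, 159 and 151 (log2 -0.47, adjusted p = 8.46e-10), and COX1 differed by -22.5%. The intron-encoded proteins of COB went the other way: BI4 was 31.0% higher and BI2, at 13.4, 9.72 and 14.8 CPM against 16.4, 18.9 and 21, was 46.8% higher. AI2, encoded in an intron of COX1, differed by -18.8%. BI2 and BI4 overlap COB on the same strand, and AI2 overlaps COX1, so how reads were divided between them bears on these values. Mitochondrial open reading frames together took 0.384 to 0.406% of counts in MATa and 0.363 to 0.370% in MATalpha. The mitochondrial 15S ribosomal RNA, outside this list, was higher in MATalpha. It was counted at 1535, 1555 and 1611 CPM in MATa and 1888, 2106 and 1996 in MATalpha (log2 0.35, adjusted p = 2.74e-09). Its counts are part of the residual ribosomal RNA share given above.

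Other lists held few calls. Over all genes tested 9.39% were higher and 10.3% lower. The shares lower were 22.7% of chaperone, 9.09% of proteasome, 8.33% of general stress and 18.2% of mitochondrial import genes. They were 6.25% of hypoxic, 18.2% of COS and 10.0% of zinc and copper genes. In these lists the shares higher lay between 3.03% (proteasome) and 12.5% (hypoxic). Of 22 chaperone genes 5 were lower and 1 higher (3 lower without MATa replicate 2), of 33 proteasome genes 3 were lower (1 without MATa replicate 2 or MATalpha replicate 2) and 1 higher, and of 24 general stress genes 2 went each way. Leaving out 1 library gave 0 to 2 general stress genes higher and 1 to 3 lower, and DESeq2 gave 0 and 1. The largest difference of this list was HSP12, higher by 0.85 on the log2 scale. Its call was lost without MATa replicate 1 (adjusted p = 0.0771) or MATalpha replicate 3 (adjusted p = 0.0549). With library totals alone 2 chaperone genes and 0 proteasome genes were lower, and in DESeq2 3 and 1. Of 22 mitochondrial import genes 4 were lower and 2 higher, and the lower count was 2 without MATa replicate 3 or MATalpha replicate 1. Of 16 hypoxic genes 2 were higher and 1 lower. TIR1 had the largest difference of them (log2 0.54), a call lost without MATa replicate 1 (adjusted p = 0.0752) or MATalpha replicate 3 (adjusted p = 0.222). Of 11 COS genes, which share reads, 1 was higher and 2 lower. The higher one, COS2, was not called in any of the 6 fits that leave out 1 library, nor with the replicate block. Among 10 zinc and copper genes 1 was called each way. Flocculins (6), seripauperins (4 of 24 tested) and thiamine genes (12) had 0 calls in edgeR and in DESeq2, with 0, 0 and 1 at an unadjusted p under 0.05.

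The same mating-type difference was read in the tup1(S649F) strains, in libraries that the WT comparison does not use. There 1325 of 5620 genes (23.6%) were called between MATalpha and MATa. Of the 1077 small WT differences also tested there, 510 (47.4%) had the same direction, against 48.9% of genes not called in WT. Those called in the same direction numbered 97, which is 9.01% of these WT calls and 7.74% of the tup1 calls, and those called in the opposite direction 129 (12% and 10.3%). In the test of the difference itself, the interaction, 1349 of 5654 genes (23.9%) passed, and 406 of the 1078 WT calls outside the mating-type lists (37.7%). The interaction uses the WT libraries of the first comparison, so the last share is not independent of how these genes were chosen. The tup1 MATa replicate 1 stood apart from its group (chi-square per degree of freedom of 21 and 28.3 against the other replicates, which gave 4.08 between them). With all 1091 WT calls, 415 passed the interaction, 669 without that library, and 273 without WT MATalpha replicate 1.

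By list, the respiratory genes that were lower in WT MATalpha (0 higher, 27 lower) gave 23 higher and 1 lower in tup1 MATalpha, with medians of -0.16 and 0.26. CIT1 was at -0.38 in WT and 0.56 in tup1 (interaction 0.93, adjusted p = 1.44e-06), and NDE1 at -0.45 and 0.33 (interaction 0.77, adjusted p = 0.000764). Ribosome biogenesis genes, 34 higher and 2 lower in WT, gave 0 higher and 36 lower in tup1 MATalpha, with medians of 0.11 and -0.27, and RLP24 was at 0.30 and -0.16 (interaction -0.47, adjusted p = 0.00197). The medians of these lists thus had opposite signs in the pair of backgrounds, although the difference between lists was not tested as such. MCM1 was at 0.31 in WT and -0.28 in tup1 (interaction -0.59, adjusted p = 0.00149), and TUP1 at 0.21 and -0.13 (interaction -0.34, adjusted p = 0.0283). Amino acid genes, 3 higher and 14 lower in WT, gave 39 higher and 1 lower in tup1, and pheromone-induced genes, 3 higher of 20 in WT, gave 24 higher of 24. Glycolysis genes gave 5 higher and 0 lower in tup1, and for TDH3 the interaction of 0.32 did not pass (adjusted p = 0.298). SNR10 was higher in MATalpha in both backgrounds, by 0.81 in WT and 0.69 in tup1 (adjusted p = 0.00262 in tup1).

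**Figure D5:**
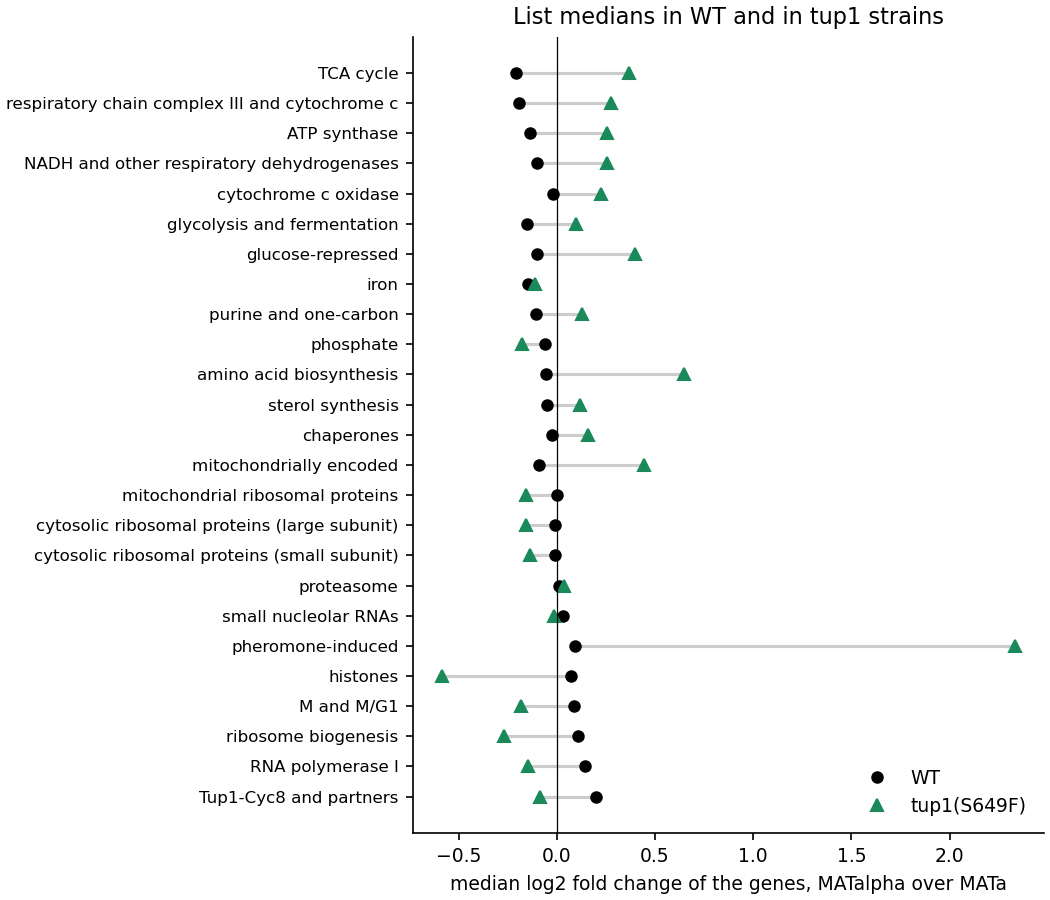
Each row gives the median log2 difference, MATalpha over MATa, of a list in the WT strains (black circles) and in the tup1(S649F) strains (green triangles), with a line joining them. Respiratory lists lie below 0 in WT and above 0 in tup1, ribosome biogenesis the other way, and pheromone-induced genes lie at 2.33 in tup1 against 0.09 in WT.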

How the data were processed

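The authors deposited raw read counts per gene as a table with 6219 identifiers. The tools named for it are featureCounts 1.6.3 (Subread), STAR 2.7.3 and cutadapt 2.8, and the builds sacCer3 and R64, per the submitters' processing notes. How strand and multi-mapping reads were handled is not given in the sources used here, so genes with near-identical copies are uncertain between copies.

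From these counts, edgeR 4.0.16 in R 4.3.3 was run on the 6 WT libraries: filterByExpr at a minimum count of 10, TMM factors, a robust quasi-likelihood fit with 4 residual degrees of freedom, two-sided tests, and Benjamini-Hochberg adjustment over the 5539 genes that passed the filter. Calls have an adjusted p under 0.05. Levels are CPM with TMM factors (mean ± SD, n = 3), and log2 differences are MATalpha minus MATa. The test was tried on simulated counts of 5521 genes. The 6 tup1 libraries were fitted alone in the same way, and the interaction was tested in a fit of all 12 libraries. Where a group had 0 counts, the fold is a lower bound that sets the group to 3 counts in all, and where it had 1 to 3, the ratio carries an exact 95% interval; these allow for counting error alone.

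Positions and promoter windows (250 bases before to 50 after the start of a gene) come from the RefSeq R64 reference. The comparison, the gene lists and the motifs were chosen with earlier results of these data known. Named genes are the members of the mating-type lists; outside these, the 10 called genes per direction with the largest difference at 10 CPM or more and no overlap; of each list up to 4 called genes by adjusted p in the leading direction and 2 in the other, or, with no call, the 2 of smallest p; the 6 most counted called genes per direction; TUP1, CYC8, MCM1 and HO; and called genes within 10 kb of MATALPHA1. The text gives some of these, and genes outside the rule are said to be chosen after their values were seen. Alternatives were other scalings (RLE, upper quartile, library totals alone), other filters, DESeq2 1.42.0, limma 3.58.1 (voom), a minimum fold of 1.2, a replicate block, all 12 libraries, and each library left out.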

Additional observations from a re-analysis of the deposited data

Results flagged for a closer look

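The results below stand out because the mating-type difference in WT and that in the tup1(S649F) strains differed in the interaction test (edgeR, adjusted p under 0.05): 59 of 115 genes named in the text and tested, beside 23.9% of all genes. LEU2, HIS3, TRP1 and ADE2, named only as members of a list, and HXT5 and SUL1 are not among the 115. Values are the log2 difference in tup1 minus that in WT, and no explanation was tested. The genes were chosen with the WT values known, and these values enter the interaction.

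The a-specific genes gave the largest values: MFA1 10.0, AGA2 9.68, MFA2 9.14, BAR1 7.76, ASG7 6.85, STE2 6.76 and STE6 4.49. Between the tup1 strains 4 of the 7 were called higher in MATalpha and 1 lower: AGA2 (log2 2.60), MFA1 (2.01), ASG7 (1.66) and BAR1 (1.15) were higher, the reverse of WT, STE6 was at -0.56, STE2 at -0.02 and MFA2 at 0.21. The neighbours YNL146C-A (4.02), CMI8 (1.18), TOH1 (1.01) and GYP8 (0.59) moved the same way, and YNL146W (-1.1) the opposite way. Alpha-specific genes with a larger excess in tup1 were SAG1 (2.79) and STE3 (1.53), and AGA1, the anchor subunit of the a-agglutinin, had a value of 4.87.

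Respiratory genes were all positive among those named: ACO1 0.94, CIT1 0.93, GUT2 0.80, NDE1 0.77, QCR9 0.67, COX4 0.57, ATP2 0.54, ATP1 0.51, LSC1 0.49, COX6 0.49, SDH1 0.49, CYT1 0.42 and RIP1 0.42. The mitochondrially encoded ATP6 (1.24), COX1 (1.02) and AI2 (0.91) were positive too, as were the hexose transporters HXT2 (0.80) and HXT4 (0.75). Nutrient genes with positive values were LEU4 (0.83), BAT1 (0.72), PHO11 (0.62), MMP1 (0.60), ERG13 (0.55) and MUP1 (0.39), beside CLN3 (0.67) and SNA2 (0.74).

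Negative values were found for YLL066C (-3.56), BSC1 (-1.32), PRM7 (-1.21), HO (-0.97), HHF1 (-0.89), PHM6 (-0.87), TYE7 (-0.70), EGT2 (-0.69), PHO12 (-0.48), RLP24 (-0.47), DIG1 (-0.47), STE20 (-0.42), NOG2 (-0.40) and SIR4 (-0.36). The corepressor genes and their partners were negative as well: SOK2 -0.66, MCM1 -0.59, CYC8 -0.42 and TUP1 -0.34. YLL066C, PHO11 and PHO12 share reads with copies.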

How the results depend on the processing

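Against 520 genes higher and 571 lower, library totals alone gave 1190 and 279, DESeq2 226 and 398 (6 of them at least 2-fold lower, against 10), a minimum fold of 1.2 gave 14 and 28, and the fit of all 12 libraries 30 and 21; DESeq2 kept 623 of the 1091 calls, and the 12-library fit 51. With RLE or upper-quartile factors, limma voom, no robust estimation, other filters on low counts, or without mitochondrial, ribosomal, transfer and small nucleolar RNA genes, these counts stayed within 1.5 times. Leaving out 1 library gave 394 to 464 higher and 404 to 535 lower, 10 to 15 and 9 to 10 at least 2-fold, 71 to 124 calls shared with tup1 (104 with all libraries) and 273 to 669 with an interaction (415). HAP1 was the 1 named gene whose sign changed, to 0.00035 with library totals alone (from -0.07). Of 195 named genes called, 144 kept the call in every setting that gave them an adjusted p, leaving aside the 12-library and minimum-fold ones. Settings without an adjusted p for a gene were not counted as a loss, as for HXT5 and HMRA1 in DESeq2. Replicate numbers do not pair the samples: same-numbered libraries deviated together with correlations of -0.0113, -0.00857 and 0.0481. With the replicate block 531 genes were higher and 564 lower, 11 and 10 of them at least 2-fold, and 83 calls were shared with tup1 and 394 had an interaction. The counts limit genes of a few CPM: the lowest of 5 equal groups lies under 15.5 CPM, and the levels of genes that share reads with copies cannot be separated.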
